A study of Mus musculus with 17 samples.

Results

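Transcripts of 9 genes of the FoxO pathway were followed in mouse skeletal muscle: the FoxO transcription factors Foxo1, Foxo3 and Foxo4, and 6 targets of the stress-response kind, namely Sesn1, Sesn3, Depp1, Cdkn1a, Bnip3 and Ccng2. A gene was measured by the probe set that carried its symbol alone and, where there were several, by whichever averaged highest across the 17 arrays. By this rule 8 of the 9 genes were measured, out of 19938 genes in the table. Cdkn1a, the cell cycle inhibitor p21, has no value here, because its probe set is shared with the symbol 4930567H12Rik. The mean over all arrays decided between probe sets only for Bnip3. The 9 genes were picked with earlier results on Foxo3, Sesn1 and Depp1 in these mice known, so their tests are not independent evidence.

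All animals were wildtype C57BL/6N males 5 to 6 months of age, with 1 array per mouse and each array labelled as a separate biological replicate. STZ,BEZ mice (n = 5) received streptozotocin, which destroys pancreatic beta cells and so gives a model of insulin deficiency, and from 2 weeks later ate chow containing the pan-PPAR activator bezafibrate for 8 weeks. STZ,SD mice (n = 5) received streptozotocin and the placebo standard diet. Con,SD mice (n = 7) received citrate buffer in mock injections and the same standard diet. The labels give 65 mg/kg streptozotocin on each of 5 days at an age of 10 to 16 weeks, and bezafibrate at 0.25% or 0.5% of the chow without the strength per mouse, so STZ,BEZ was treated as 1 group. The study's methods text differs in giving a lower streptozotocin dose, the higher bezafibrate strength alone and controls without injections. Which muscle was dissected, the sources used here do not give.

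FoxO factors are forkhead proteins that bind DNA and switch on genes of stress resistance, cell cycle arrest, autophagy and protein breakdown. Insulin signalling through Akt phosphorylates them, and the phosphorylated proteins are held in the cytoplasm by 14-3-3 proteins. In skeletal muscle low insulin, fasting and disuse release them into the nucleus, where they take part in wasting. That control acts on the proteins, whereas the arrays measured transcripts.

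Values are log2 expression values, so a difference of 1 is a 2-fold change. A gene was called when its adjusted p in limma was under 0.1, with the adjustment over all 19938 genes. The 12 muscle fibre markers averaged 13.4 to 13.6 on all 17 arrays, but were slightly lower in diabetic mice. The lowest Con,SD array had 13.523, and the highest STZ,SD and STZ,BEZ arrays had 13.519 and 13.504. Between STZ,SD and Con,SD, 4 of the 12 were called as lower and 0 as higher, with 11.9% of all genes called as lower. Con,SD array 1 stood apart, with a hepatocyte marker level of 12 against 10.1 on the next highest array and a testis marker level of 8.81 against at most 5.95 elsewhere. The hepatocyte signal also differed by group. Of 11 such markers, 2 were called as lower in STZ,SD vs. Con,SD (median -0.76) and 6 in STZ,BEZ vs. Con,SD (median -1.41). None was called as higher, and 11.9% and 8.45% of all genes were called as lower. Con,SD arrays 1, 3 and 4, which an earlier analysis of these data set apart, were also left out together. The 3 comparisons share their arrays pairwise, so their values stand side by side and none supports another.

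Between STZ,SD and Con,SD muscle, 7 of the 8 measured genes were higher and 0 were lower, while 25.8% of all genes were called, 13.9% as higher and 11.9% as lower. Foxo1, Foxo3, Foxo4, Sesn1, Sesn3, Depp1 and Bnip3 were called, and Ccng2 was not. In the same comparison 4 genes, namely Foxo1, Foxo3, Foxo4 and Sesn1, had every STZ,SD mouse above every Con,SD mouse, which held for 4.87% of all genes. The median difference of the 8 genes was 0.59, against -0.0095 over all genes. Since whole muscle was used, more cells of a type and more RNA per cell cannot be told apart.

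**Figure D1:**
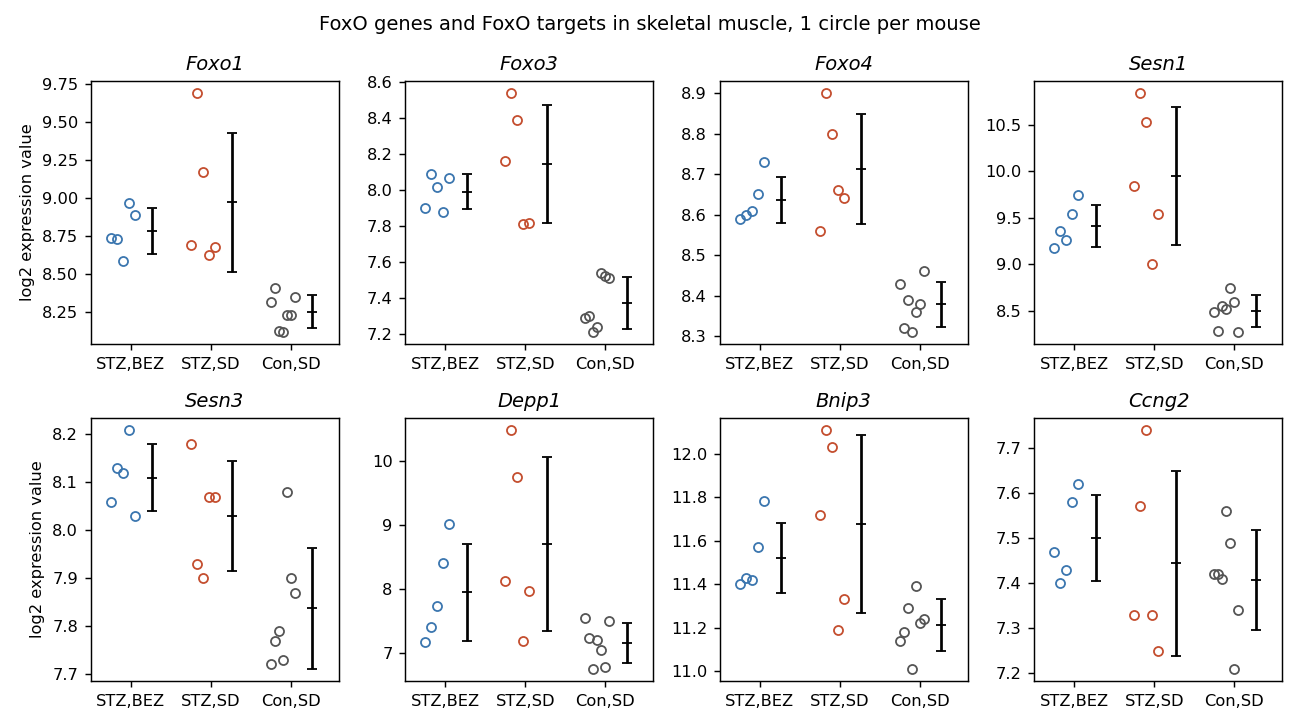
Log2 expression value (y axis, own scale per panel) of the 8 measured genes, with 1 circle per mouse and groups STZ,BEZ, STZ,SD and Con,SD from left to right; the bars beside the circles give the mean ± SD. In the panels of Foxo1, Foxo3, Foxo4 and Sesn1 no Con,SD circle reaches the lowest STZ,SD circle, and 2 STZ,SD mice stand at the top of most panels.

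Foxo1 had log2 values of 8.74, 8.73, 8.59, 8.97 and 8.89 in STZ,BEZ muscle. In STZ,SD muscle its values were 8.69, 9.69, 9.17, 8.63 and 8.68. In Con,SD muscle they ran from 8.12 over a median of 8.23 to 8.41. All 10 mice given streptozotocin lay above all controls, and 2 STZ,SD mice, arrays 2 and 3, lay above the other diabetic ones. The STZ,SD vs. Con,SD difference was 0.72 ± 0.14 (SE), a 1.64-fold higher level with a 95% interval of 0.42 to 1.01 on the log2 scale (limma, adjusted p = 0.00196).

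Foxo3, whose protein drives ubiquitin ligase and autophagy genes in wasting muscle, had values of 7.90, 8.09, 8.02, 7.88 and 8.07 in STZ,BEZ mice. The STZ,SD mice had 8.16, 8.54, 8.39, 7.81 and 7.82. The Con,SD mice had a lowest value of 7.21, a median of 7.30 and a highest value of 7.54. No diabetic mouse overlapped a control, and the gap of 0.28 (from unrounded values) between the lowest STZ,SD and the highest Con,SD mouse was wider than the 0.22 of Foxo1. The STZ,SD level exceeded the Con,SD level by 0.77 ± 0.11, or 1.71-fold, with an interval of 0.54 to 1.01 (limma, adjusted p = 0.000155).

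Foxo4, the FoxO gene on the X chromosome, had values of 8.59, 8.60, 8.61, 8.65 and 8.73 in STZ,BEZ mice and of 8.56, 8.90, 8.80, 8.66 and 8.64 in STZ,SD mice. Its Con,SD values had a minimum of 8.31, a median of 8.38 and a maximum of 8.46. The groups were again separate, but by a gap of only 0.10 between STZ,SD and Con,SD. The difference of 0.33 ± 0.06 was 1.26-fold, with an interval of 0.21 to 0.46 (limma, adjusted p = 0.000703). Of the 3 FoxO genes among the members it had the smallest point estimate, and its interval ended below the lower bound for Foxo3.

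The sestrins are stress-induced proteins, and as partners of the GATOR2 complex they restrain the growth kinase complex mTORC1. Sesn1 measured 9.18, 9.36, 9.26, 9.54 and 9.74 in STZ,BEZ muscle, against 9.84, 10.84, 10.53, 9.0 and 9.54 in STZ,SD muscle. Con,SD muscle gave a range of 8.27 to 8.75 with a median of 8.52. Every diabetic mouse was above every control, and the STZ,SD mice spread over 1.84 against 0.49 in Con,SD mice. With 1.45 ± 0.22, a 2.74-fold level, Sesn1 ranked 8 among all genes by the size of the rise (interval 0.98 to 1.93, limma, adjusted p = 0.00027).

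Promoter windows of 300 bases from RefSeq (GRCm38.p6), with 250 bases before and 50 after each listed start, were read for 8 of the 9 genes. They were searched on both strands for the FoxO element GTAAACA, the insulin response core CAAAACA and the hypoxia response core ACGTG, found in 3.65%, 6.28% and 19.6% of 32851 mouse windows. The windows below are those with a match and that of Depp1, the gene with the largest difference. Capitals mark the matched letters.
Sesn1: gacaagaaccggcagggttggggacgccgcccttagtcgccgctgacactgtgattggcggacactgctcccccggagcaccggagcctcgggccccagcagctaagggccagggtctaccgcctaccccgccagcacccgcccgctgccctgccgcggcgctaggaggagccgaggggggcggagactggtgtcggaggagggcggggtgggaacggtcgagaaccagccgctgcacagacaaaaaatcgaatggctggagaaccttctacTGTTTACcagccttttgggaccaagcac
Depp1: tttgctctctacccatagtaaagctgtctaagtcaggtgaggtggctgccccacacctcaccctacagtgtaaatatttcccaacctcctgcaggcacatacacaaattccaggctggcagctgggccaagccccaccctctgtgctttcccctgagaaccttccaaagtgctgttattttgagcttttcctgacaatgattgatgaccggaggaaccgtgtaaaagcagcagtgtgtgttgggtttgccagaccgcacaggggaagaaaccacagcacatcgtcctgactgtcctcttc
Bnip3: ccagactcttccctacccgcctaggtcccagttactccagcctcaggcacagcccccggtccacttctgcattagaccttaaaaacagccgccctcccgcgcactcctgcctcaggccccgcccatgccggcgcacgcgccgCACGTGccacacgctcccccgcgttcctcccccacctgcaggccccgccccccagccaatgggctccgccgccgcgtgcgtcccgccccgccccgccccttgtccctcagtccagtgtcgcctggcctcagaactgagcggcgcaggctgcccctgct
Ccng2: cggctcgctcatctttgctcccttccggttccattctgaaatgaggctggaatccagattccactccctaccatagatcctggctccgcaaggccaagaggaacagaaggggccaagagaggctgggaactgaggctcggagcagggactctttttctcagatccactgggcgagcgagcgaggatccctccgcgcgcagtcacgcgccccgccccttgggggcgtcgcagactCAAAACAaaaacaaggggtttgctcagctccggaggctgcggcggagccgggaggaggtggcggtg
Sesn1 (chr10:41810324-41810623, plus strand) held the FoxO element on its minus strand, printed as TGTTTAC, from position 23 after the start. A second listed start of Sesn1 had no match. Bnip3 (chr7:138909457-138909756, minus strand) held CACGTG, in which the hypoxia core overlaps itself on both strands at positions -108 and -107. Ccng2 (chr5:93267323-93267622, plus strand) held the insulin response core from position -16. Depp1 (chr6:116650434-116650733, plus strand), Foxo1, Foxo3, Sesn3 and the windows of Cdkn1a held none of these letters. A match describes the sequence only, since binding was not measured.

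Sesn3 differed least among the called genes. Its values were 8.06, 8.13, 8.12, 8.21 and 8.03 in STZ,BEZ mice and 8.18, 7.93, 7.90, 8.07 and 8.07 in STZ,SD mice. The Con,SD mice had 7.72 at the lowest, 7.79 at the median and 8.08 at the highest. Only 1 STZ,SD mouse exceeded all controls, of which array 5 was the highest, while the other controls reached 7.90, the lowest STZ,SD value. The difference was 0.19 ± 0.07, a 1.14-fold level (interval 0.05 to 0.34, limma, adjusted p = 0.0536). This call rested on single arrays: it was lost without STZ,SD array 1 (0.16, adjusted p = 0.14) or array 5 (0.18, adjusted p = 0.104), and without Con,SD arrays 1, 3 and 4 (0.13, adjusted p = 0.287).

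Depp1 encodes a FoxO-induced protein that in human cells is linked to autophagy and peroxisomes. It had the widest range, with values of 7.17, 7.40, 7.74, 8.41 and 9.02 in STZ,BEZ mice. In STZ,SD mice the values were 8.12, 10.49, 9.75, 7.19 and 7.97. In Con,SD mice they spanned 6.75 to 7.54, with a median of 7.21. Of the STZ,SD mice 4 lay above all controls and 1 lay within them, and the groups therefore overlapped. Its difference of 1.55 ± 0.44 (2.93-fold, interval 0.62 to 2.48, limma, adjusted p = 0.0203) ranked 7 among all genes by the size of the rise. Without STZ,SD arrays 2 and 3, however, the difference was 0.61 (limma, adjusted p = 0.259).

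Bnip3, a receptor on mitochondria that recruits the autophagy machinery, had values of 11.40, 11.43, 11.42, 11.57 and 11.78 in STZ,BEZ mice. The STZ,SD values were 11.72, 12.11, 12.03, 11.19 and 11.33. The Con,SD values lay between 11.01 and 11.39 around a median of 11.22. The STZ,SD mice split, with 3 above all controls and 2 among them, whereas all STZ,BEZ mice lay above the controls by a margin of 0.01. The difference between STZ,SD and Con,SD was 0.46 ± 0.13 (1.38-fold, interval 0.19 to 0.74, limma, adjusted p = 0.0198). Without STZ,SD arrays 2 and 3 it was 0.20 (adjusted p = 0.271).

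Bnip3 was the only member with another probe set of its own, of a lower mean. There the values were 10.73, 10.95, 10.91, 11.06 and 11.22 in STZ,BEZ mice and 11.18, 11.64, 11.59, 10.77 and 10.77 in STZ,SD mice, against 10.40, 10.62, 10.79, 10.60, 10.68, 10.68 and 10.60 in Con,SD mice. It gave the same order of STZ,SD arrays at the top, and a difference of 0.57 ± 0.14 between STZ,SD and Con,SD (limma over 35556 probe sets, adjusted p = 0.0125). Of the 10 genes with the nearest probe set numbers, 10 lay on chromosome 14 for the probe set used and 10 on chromosome 7, that of Bnip3, for the other. Whether the probe set used detects a copy of Bnip3 elsewhere was not tested.

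Ccng2 encodes cyclin G2, an unconventional cyclin that goes with cell cycle arrest. Its values were 7.47, 7.40, 7.43, 7.58 and 7.62 in STZ,BEZ mice and 7.33, 7.57, 7.74, 7.33 and 7.25 in STZ,SD mice. Its Con,SD values had 7.21 as the lowest, 7.42 as the median and 7.56 as the highest. The 3 groups overlapped throughout. The STZ,SD vs. Con,SD difference was 0.04 ± 0.08 with an interval of -0.14 to 0.21 (limma, adjusted p = 0.797).

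**Figure D2:**
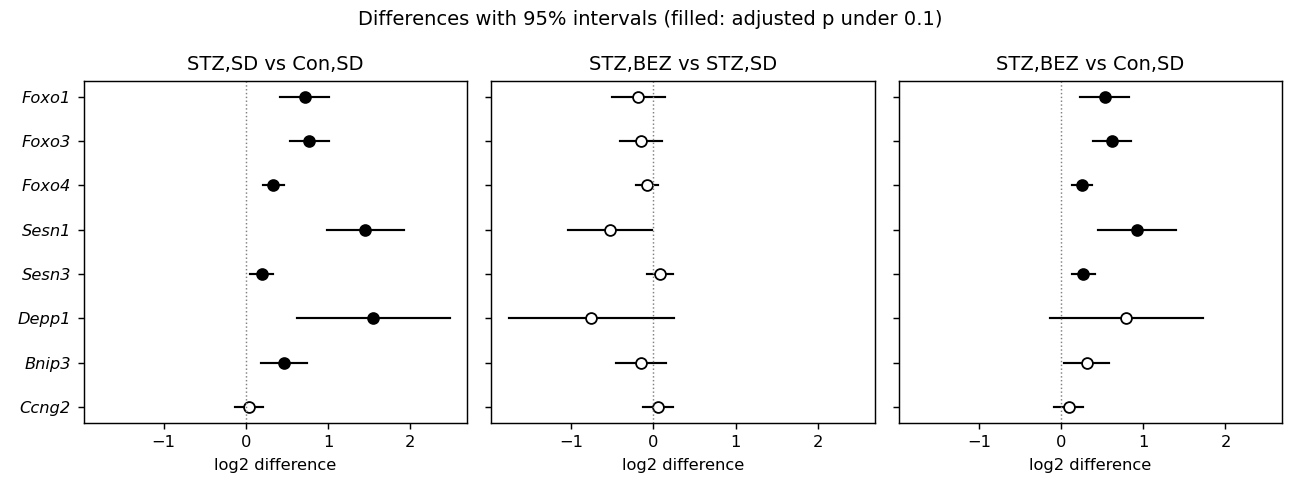
Log2 difference (x axis) of each gene in the STZ,SD vs. Con,SD, STZ,BEZ vs. STZ,SD and STZ,BEZ vs. Con,SD comparisons, with 95% intervals; filled circles are genes with a limma adjusted p under 0.1. In the left panel 7 circles are filled, in the middle panel 0 and in the right panel 5.

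The effect of bezafibrate in diabetic mice was addressed by the STZ,BEZ vs. STZ,SD comparison, in which limma called 0 of the 8 genes, with 0.0201% of all genes called. At an unadjusted p under 0.05 limma passed 1 of the 8, with 5.69% of all genes, and significance analysis of microarrays (SAM) called 0. The point estimates were negative for 6 genes and positive for 2, with a median of -0.15 against 0.0016 over all genes. No gene had separate groups, which 1.16% of all genes had. The adjusted p-values lay between 0.87 and 0.997.

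Sesn1 was the gene at an unadjusted p under 0.05 (0.0419, adjusted p = 0.87 in limma), with a mean of 9.42 ± 0.23 in STZ,BEZ and 9.95 ± 0.75 in STZ,SD mice (SD, n = 5 each). The difference was -0.53 ± 0.24, with an interval of -1.04 to -0.02. Depp1 had means of 7.95 ± 0.76 in STZ,BEZ and 8.71 ± 1.37 in STZ,SD mice. Its difference of -0.76 ± 0.48 had an interval of -1.76 to 0.25, which left room for a lower level and for a higher one. These intervals and the unadjusted p of Sesn1 rest on a spread per gene that the fit shares across all groups. Con,SD mice spread less, with an SD of 0.31 for Depp1 and 0.17 for Sesn1. The intervals may therefore be too narrow for the diabetic groups. For the FoxO genes the intervals were narrower. They ran from -0.51 to 0.13 for Foxo1 (-0.19 ± 0.15), from -0.41 to 0.10 for Foxo3 (-0.16 ± 0.12) and from -0.21 to 0.06 for Foxo4 (-0.08 ± 0.06). Bnip3 differed by -0.15 ± 0.14 (interval -0.45 to 0.15), Sesn3 by 0.08 ± 0.07 (-0.08 to 0.23) and Ccng2 by 0.06 ± 0.09 (-0.13 to 0.24).

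The sign of most of these estimates came from STZ,SD arrays 2 and 3. Without them the STZ,BEZ minus STZ,SD values were 0.12 for Foxo1, 0.06 for Foxo3, 0.02 for Foxo4, 0.19 for Depp1 and 0.11 for Bnip3, all of the opposite sign to those with all arrays. The value for Sesn1 was -0.04, for Sesn3 0.002 and for Ccng2 0.20. None was called in either fit. Leaving these arrays out was chosen after seeing the data.

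Against Con,SD mice, STZ,BEZ mice were higher in 5 of the 8 genes and lower in 0, with 21.6% of all genes called, 13.1% as higher and 8.45% as lower. The called genes were Foxo1 (0.53 ± 0.14, 1.44-fold), Foxo3 (0.62 ± 0.11, 1.53-fold), Foxo4 (0.26 ± 0.06, 1.2-fold), Sesn1 (0.92 ± 0.22, 1.90-fold) and Sesn3 (0.27 ± 0.07, 1.21-fold), with limma adjusted p-values of 0.0181, 0.00145, 0.00627, 0.0102 and 0.0117. Depp1 with 0.79 ± 0.44 (adjusted p = 0.241), Bnip3 with 0.31 ± 0.13 (adjusted p = 0.122) and Ccng2 with 0.09 ± 0.08 (adjusted p = 0.475) were not called. Separate groups were seen for 5 genes, namely Foxo1, Foxo3, Foxo4, Sesn1 and Bnip3, with 6.01% of all genes separate in that direction. For Bnip3 this held by 0.01 and only on the probe set used. On its other probe set the groups overlapped, with STZ,BEZ array 1 at 10.73 and Con,SD array 3 at 10.79. The margin was 0.42 for Sesn1, 0.35 for Foxo3, 0.17 for Foxo1 and 0.14 for Foxo4. Called genes were not all the same in both diabetic groups, but the direct STZ,BEZ vs. STZ,SD test called no member.

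**Figure D3:**
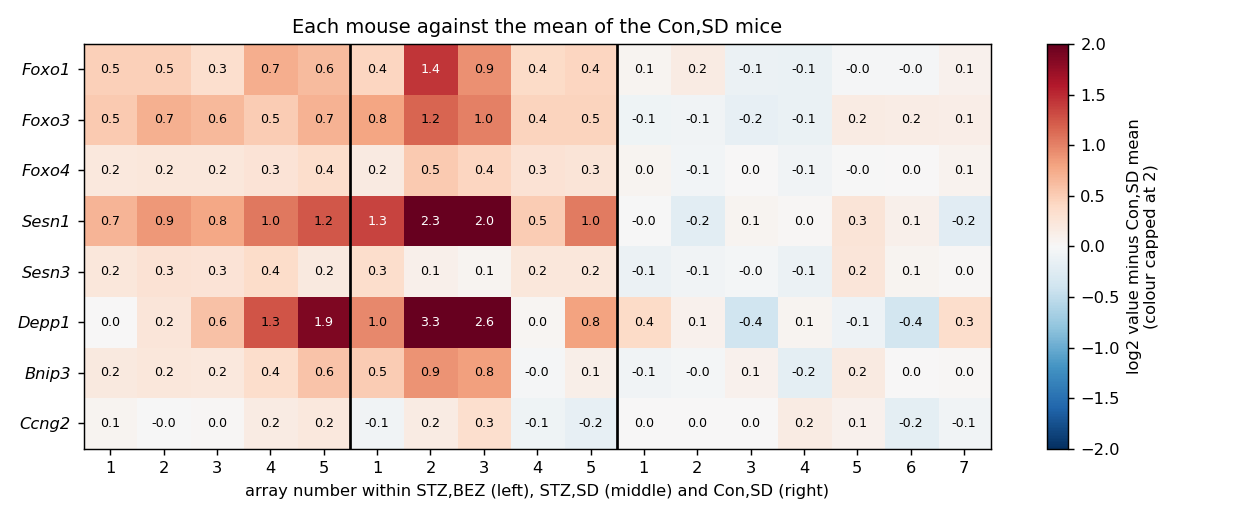
Each cell gives the log2 value of 1 mouse minus the Con,SD mean of that gene (colour, capped at 2), with STZ,BEZ arrays 1 to 5 on the left, STZ,SD arrays 1 to 5 in the middle and Con,SD arrays 1 to 7 on the right. STZ,SD arrays 2 and 3 are the darkest columns, and their cells are palest in the rows of Sesn3 and Ccng2.

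The diabetic mice did not move evenly. STZ,SD arrays 2 and 3 held the 2 highest STZ,SD values of 7 of the 8 genes, and for Sesn3 they held the 2 lowest. Over all genes these arrays were the 2 highest in 19% and the 2 lowest in 17.9%. The mean of the 8 genes stood 1.24 and 1.02 above the Con,SD mean on these arrays, against 0.56, 0.22 and 0.40 on STZ,SD arrays 1, 4 and 5. In STZ,BEZ muscle arrays 4 and 5 were the 2 highest in 6 of the 8 genes, all but Foxo3 and Sesn3, with 9.91% of all genes. There the mean deviations were 0.30, 0.38, 0.38, 0.59 and 0.72 for arrays 1 to 5.

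The spread within groups differed as well. The SD in STZ,SD mice was larger than in Con,SD mice for 7 of the 8 genes, with ratios of 4.35 for Depp1, 4.33 for Sesn1, 4.15 for Foxo1, 3.41 for Bnip3, 2.58 for Foxo4, 2.26 for Foxo3 and 1.83 for Ccng2, and 0.914 for Sesn3. Over all genes the median ratio was 0.842, and 39.3% of genes had a ratio above 1. In STZ,BEZ mice the SD was below that in STZ,SD mice for 8 of 8 genes, with ratios between 0.293 and 0.603. Over all genes the median of this ratio was 0.933, and 45.4% of genes had a ratio above 1. For Depp1 the range was 1.85 in STZ,BEZ, 3.30 in STZ,SD and 0.79 in Con,SD mice. The ratios were not tested, and the genes share their arrays. The limma fit shares a spread per gene across the groups, so its intervals and p-values do not allow for these ratios.

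Fibroblast markers moved with this order. The mean of 8 fibroblast markers was 8.67 and 8.81 on STZ,SD arrays 2 and 3, against 9.66 to 9.86 on the other STZ,SD arrays, and 9.33 and 9.03 on STZ,BEZ arrays 4 and 5, against 9.51 to 9.65 on the other STZ,BEZ arrays. Con,SD mice had 9.45 to 9.75. Between STZ,SD and Con,SD, 1 of the 8 markers was called, with 25.8% of all genes called. It was the matrix gene Dpt, called as lower (-0.89 ± 0.26, limma, adjusted p = 0.0227), and 0 were called as higher. The estimates of the 8 markers had either sign, with a median of -0.23, so they did not all fall. Macrophage markers were lowest on the same STZ,SD arrays, at 7.34 and 7.24 of a range up to 8.05. Among STZ,SD arrays, smooth muscle markers were highest on arrays 2 and 3, at 8.27 and 8.34 against 7.97 to 8.04 on the others. They had 8.11 to 8.30 in STZ,BEZ and 7.85 to 8.10 in Con,SD mice. Of these 7 markers, 1 was called as higher in STZ,SD than in Con,SD, with 13.9% of all genes called as higher. Endothelial markers were above Con,SD in every diabetic mouse, at 8.95 to 9.06 in STZ,BEZ, 8.84 to 9.09 in STZ,SD and 8.61 to 8.82 in Con,SD mice. In STZ,SD 7 of 12 were called as higher (58.3%), against the same 13.9% of all genes. The part of endothelial cells, smooth muscle cells and macrophages in the FoxO values was not tested.

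**Figure D4:**
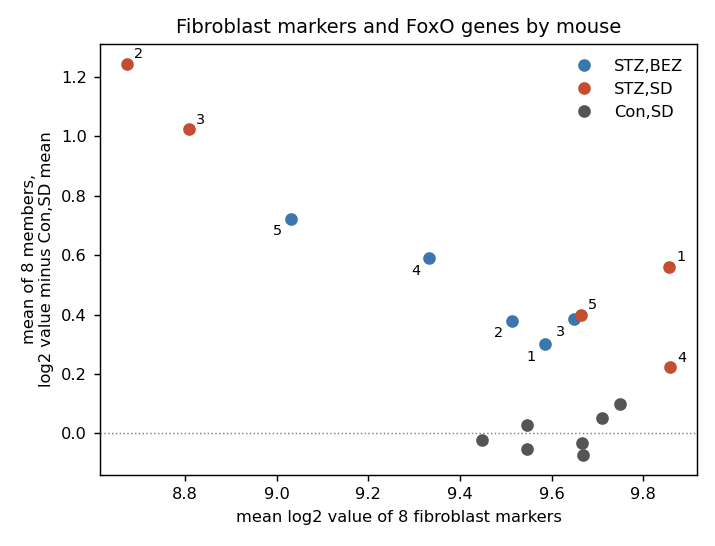
Mean log2 value of 8 fibroblast markers (x axis) and mean deviation of the 8 FoxO pathway genes from their Con,SD means in log2 units (y axis), with 1 point per mouse and array numbers beside the STZ,BEZ and STZ,SD points. The STZ,SD arrays 2 and 3, at 8.67 and 8.81, have the lowest marker level and the largest deviations, 1.24 and 1.02.

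With the fibroblast level as a covariate, 7 of the 8 genes were still called between STZ,SD and Con,SD, with 23.5% of all genes called in that fit. The differences were 0.55 for Foxo1, 0.68 for Foxo3, 0.28 for Foxo4, 1.2 for Sesn1, 0.24 for Sesn3, 0.99 for Depp1 and 0.33 for Bnip3, so that of Depp1 was over 1.5 times smaller than without the covariate. Without STZ,SD arrays 2 and 3, 5 of 8 genes were called, with 14% of all genes called: Foxo1 (0.41, limma, adjusted p = 0.00629), Foxo3 (0.56, adjusted p = 0.00229), Foxo4 (0.24, adjusted p = 0.0142), Sesn1 (0.96, adjusted p = 0.00182) and Sesn3 (0.27, adjusted p = 0.0356). Depp1 and Bnip3 then lost their calls in this comparison. Both settings were chosen after seeing the data.

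The genes around the FoxO factors were taken as lists, whose shares called between STZ,SD and Con,SD muscle stand beside the 25.8% called among all genes. Of 41 measured regulators of FoxO, 8 were higher and 5 lower in STZ,SD than in Con,SD muscle, with a median of -0.02. Their share of 31.7% was near that of all genes, so the count says nothing about regulators as a group. The acetyltransferases Crebbp (0.42 ± 0.06, limma, adjusted p = 0.000141) and Kat2b (0.46 ± 0.08, adjusted p = 0.000689), which acetylate FoxO proteins, and the deacetylase Sirt1 (0.51 ± 0.10, adjusted p = 0.00135), which removes the acetyl groups, were all higher. The 14-3-3 gene Ywhah, of the proteins that hold FoxO in the cytoplasm, was lower (-0.50 ± 0.08, adjusted p = 0.000301). These 4 kept the same sign and a call between STZ,BEZ and Con,SD, with 0.38 for Crebbp, 0.40 for Kat2b, 0.53 for Sirt1 and -0.48 for Ywhah.

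Of 18 metabolic targets of FoxO, 11 were higher and 0 lower (61.1% called), with a median of 0.23 against -0.0095 over all genes. Among them were the insulin-like growth factor receptor Igf1r (1.05 ± 0.15, limma, adjusted p = 0.000161), Pdk4, which blocks pyruvate dehydrogenase (1.01 ± 0.15, adjusted p = 0.000263), the insulin receptor substrate Irs2 (0.60 ± 0.10, adjusted p = 0.000489) and the transcription factor Klf15 (0.88 ± 0.18, adjusted p = 0.00203). Of 19 targets of proteolysis and autophagy, 6 were higher and 2 lower (42.1% called). The ubiquitin ligase components Fbxo31 (0.63 ± 0.11, adjusted p = 0.000519) and Fbxo30 (0.32 ± 0.06, adjusted p = 0.000605) and the lysosomal regulator Tfeb (0.32 ± 0.07, adjusted p = 0.00247) were higher, and the autophagy gene Atg12 was lower (-0.34 ± 0.08, adjusted p = 0.00538).

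Among 26 other genes of stress resistance, cell cycle and cell death, 11 were higher and 4 lower (57.7% called), with a median of 0.21. They were listed as FoxO targets except Foxo6, itself a FoxO factor. Foxo6 was not called in STZ,SD vs. Con,SD (0.08 ± 0.09, limma, adjusted p = 0.576) or in STZ,BEZ vs. Con,SD (0.06 ± 0.09, adjusted p = 0.666). Bcl2l11, which encodes the death protein BIM (0.68 ± 0.10, limma, adjusted p = 0.000155), the transcriptional regulator Cited2 (0.78 ± 0.13, adjusted p = 0.000639) and the DNA damage gene Gadd45a (0.67 ± 0.12, adjusted p = 0.000961) were higher. The mitochondrial peroxiredoxin Prdx3 was lower (-0.57 ± 0.11, adjusted p = 0.00179). In the STZ,BEZ vs. Con,SD comparison 13 of these 26 were higher and 1 lower, with 1.2 ± 0.13 for Cited2. There 13.1% of all genes were called as higher and 8.45% as lower.

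**Figure D5:**
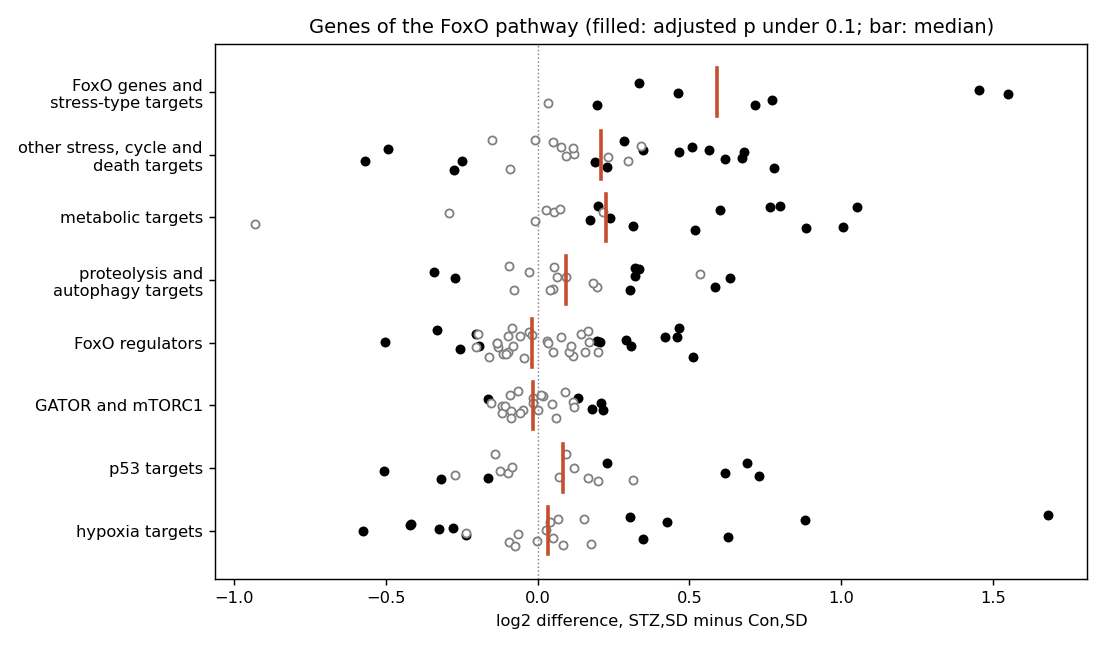
Log2 difference between STZ,SD and Con,SD muscle (x axis) for each gene of 8 lists (rows), 1 circle per gene, filled at a limma adjusted p under 0.1, with the list median as a bar. The 8 FoxO pathway genes have a median of 0.59, against 0.23 for metabolic targets and -0.02 for FoxO regulators.

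The sestrins act through the GATOR complexes on mTORC1. Of 25 genes of that system, 4 were higher and 1 lower in STZ,SD muscle, with a median of -0.01. The 20% called was below the 25.8% of all genes, so the count is no result about this system. The called differences were 0.21 ± 0.07 for the mTORC1 subunit Rptor (limma, adjusted p = 0.0416), 0.18 ± 0.06 for Tsc2 (adjusted p = 0.0423), 0.13 ± 0.05 for the Rag GTPase Rraga (adjusted p = 0.0868) and -0.16 ± 0.06 for Rheb, the GTPase that activates mTORC1 (adjusted p = 0.0478).

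Cdkn1a and Sesn1 are p53 targets as well, and Bnip3 responds to hypoxia. Of 18 p53 targets 4 were higher and 3 lower (38.9% called), with the receptor gene Eda2r at 0.69 ± 0.17 (limma, adjusted p = 0.00803) and Trp53inp1 at 0.62 ± 0.16 (adjusted p = 0.0122), but Phlda3 at -0.51 ± 0.08 (adjusted p = 0.000443) and Ei24 at -0.32 ± 0.07 (adjusted p = 0.00473). Of 24 hypoxia targets 6 were higher and 6 lower (50% called), with a median of 0.04. The prolyl hydroxylase gene Egln3 (1.68 ± 0.33, adjusted p = 0.00182), Mxi1 (0.35 ± 0.07, adjusted p = 0.0028) and Ndrg1 (0.31 ± 0.07, adjusted p = 0.00542) were higher and the lactate dehydrogenase gene Ldha was lower (-0.28 ± 0.05, adjusted p = 0.00184). Both lists held called genes of either direction.

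Between STZ,BEZ and STZ,SD muscle 0 genes of these 7 lists were called by limma. At an unadjusted p under 0.05, which 5.69% of all genes passed in limma, the counts were 2 of 41 regulators, 2 of 18 metabolic and 2 of 19 proteolysis targets. They were 2 of 26 genes of the stress list, 1 of 25 mTORC1 genes, 2 of 18 p53 targets and 5 of 24 hypoxia targets. The gene with the smallest p in each list was Mapk9 (0.17 ± 0.07), Pdk4 (-0.36 ± 0.17), the ubiquitin ligase Trim63 (-0.45 ± 0.19), Cited2 (0.42 ± 0.14), the GATOR1 subunit Nprl2 (0.32 ± 0.10), Eda2r (-0.55 ± 0.18) and the pyruvate dehydrogenase kinase Pdk1 (0.26 ± 0.06). Their limma adjusted p-values were 0.87, 0.87, 0.867, 0.778, 0.778, 0.778 and 0.444.

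For each of the 7 called genes, the genes most like it were found by the root-mean-square difference of the centred log2 values over the 17 arrays, where a smaller number is a closer match. Foxo1, with an SD of 0.409 over the arrays, was matched most closely by Sorbs3 (0.113), the forkhead gene Foxk1 (0.113) and Mapk1ip1 (0.123). Foxo3 was followed by Cyyr1 (0.114), the Notch coactivator Maml3 (0.132) and Sidt2 (0.135), and Foxo4 by the ubiquitin ligase gene Rlim (0.051), Ankrd11 (0.0651) and Sympk (0.0668). Sesn1 was most like Ppp1r1a (0.24), an inhibitor of protein phosphatase, Igfbp3 (0.245) and the phosphatase gene Dusp26 (0.27), at an SD of its own of 0.755. Sesn3 lay near the Mediator subunit gene Med23 (0.056), Trrap (0.0626) and Cnot11 (0.0651). Depp1, with an SD of 1.04, had more distant neighbours in Cebpd (0.356), Egln3 (0.373) and Arrdc2 (0.425), and Bnip3 had Ece1 (0.102), Pcnt (0.102) and Ank3 (0.104). No member was among the 3 closest genes of another. The values were not scaled, so genes of unlike SD lie apart even where their arrays rank alike, and this does not show whether members vary together. Foxo1, Foxo3, Sesn1, Depp1 and Bnip3 ranked the STZ,SD arrays alike, as 2, 3, 1, 5 and 4 from high to low. Foxo4 and Sesn3 had other orders.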

How the data were processed

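Total RNA from skeletal muscle of 17 mice was measured on Affymetrix Mouse Gene 1.0 ST chips. The deposited values are log2 expression values that the authors computed by RMA, which corrects background, quantile-normalizes the arrays and summarises probes by median polish. Affymetrix Expression Console 1.2 is credited to the submitters' processing notes. The sources used here do not give the genome build behind the probe sets. The values ran from 2.76 to 14.6 with 0 missing. Quantile normalization would hide a shift shared by most genes. Detection calls and scan dates were not used, so no batch was tested, and the number of arrays limits the precision.

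Of 35556 probe sets, 21789 had 1 gene symbol in the platform annotation, 1621 had several and 12146 had none. For 999 genes with several single-symbol probe sets that of highest mean was kept, which left 19938 genes. Groups came from the labels. All comparisons came from 1 fit of 17 arrays with limma 3.58.1 (lmFit, eBayes) in R 4.3.3, two-sided, with Benjamini-Hochberg adjustment over all genes and an adjusted p under 0.1. The script was tested on simulated data. SAM, the study's method, was written anew with 100 permutations. Figures used Python 3.11.15 and matplotlib 3.10.9.

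The members and lists were chosen with earlier results of these data known. Of 286 list entries, markers included, 269 were measured. Besides the members, the text names from each list up to 4 genes of smallest adjusted p between STZ,SD and Con,SD, the 1 with the smallest p between STZ,BEZ and STZ,SD, and the 3 most like each called member. Dpt and Foxo6 were named after their values were seen. Sequences are from RefSeq. Alternatives changed scaling, dim genes, probe sets, rows, samples, array weights, variance trend, test, threshold, replicate block, covariates and arrays left out.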

Additional observations from a re-analysis of the deposited data

Results flagged for a closer look

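In 183 groups of values over 61 named genes, 4 single mice lay far from the rest of their group by Dixon's criterion. Chance gives such a mouse in about 1 of 20 groups, so these 4 are fewer than that rate gives. Of them, 0 concerned a member. Fbxo30 had 7.94 on STZ,SD array 4, with the next array at 7.76. Phlda3 had 11.03 on STZ,BEZ array 3, with the next at 10.71, and Sidt2 had 10.09 on STZ,BEZ array 5, with the next at 10.01. Prdx3 had 10.52 on Con,SD array 6, with the next at 10.95.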

How the results depend on the processing

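Over 32 alternatives, 30 of them planned, Foxo1, Foxo3, Foxo4 and Sesn1 kept their sign and call against Con,SD in both diabetic groups, and no member was called between STZ,BEZ and STZ,SD. Sesn3 lost its STZ,SD vs. Con,SD call at a threshold of 0.05, with a replicate block, with the hepatocyte level as a covariate (0.17, limma, adjusted p = 0.108) and under the array exclusions given above. Depp1 and Bnip3 lost theirs only without STZ,SD arrays 2 and 3. Without single arrays Depp1 ranged from 1.10 to 1.93 and Bnip3 from 0.36 to 0.59. Between STZ,BEZ and Con,SD, Bnip3 and Depp1 gained a call with SAM, with only the groups compared and without STZ,SD arrays 2 and 3, and Bnip3 also without STZ,SD array 2 or array 4. Ccng2, never called, changed sign between STZ,SD and Con,SD under 4 alternatives (lowest -0.11).

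The count of all genes called between STZ,SD and Con,SD, 5142, became 8673 with all probe sets as rows, 2796 without STZ,SD arrays 2 and 3, and 3814 to 5430 without single arrays. Between STZ,BEZ and STZ,SD the 4 genes became 11 with array weights, 11 with the hepatocyte covariate, 7 without Con,SD arrays 1, 3 and 4, 7 with the fibroblast covariate, 8 with only the groups compared, 12 with SAM, and 4 to 6 without single arrays. Between STZ,BEZ and Con,SD the 4298 genes became 7408 with all probe sets, 2795 at a threshold of 0.05, and 2998 to 4712 without single arrays. Members called numbered 6 to 7, 0 and 5 to 6 without single arrays. The causes of these shifts were not tested.

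The replicate numbers do not pair mice, since the labels give different animals. With the number as a replicate block, 4598, 5 and 3825 genes and 6, 0 and 5 members were called in the STZ,SD vs. Con,SD, STZ,BEZ vs. STZ,SD and STZ,BEZ vs. Con,SD comparisons, and Sesn3 had 0.21 in STZ,SD vs. Con,SD (limma, adjusted p = 0.105). Same-numbered mice correlated at -0.24 to 0.08 in their deviations, and 0 of 15 arrays correlated best with its own number.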
